A study of Arabidopsis thaliana with 12 samples.

Results

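UDP-glycosyltransferases, or UGTs, are the subject here: 46 genes of Arabidopsis thaliana, each read by 1 probe set among 22810 on the Affymetrix ATH1 array. The members were every gene whose symbol in the array's annotation is UGT followed by a family number, a subfamily letter and a gene number, where the probe set lists that gene alone; UGT78D2 was left out by the rule. Each member had a single probe set, so no choice between probe sets arose, and 13513 probe sets in all carried the name of 1 gene. A further 3 probe sets list a UGT together with other genes and were not used.

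UGTs move a sugar, most often glucose, from a UDP-sugar onto a small molecule, and a conserved stretch near the carboxyl end of the protein binds the sugar donor. The acceptors include hormones, lignin precursors, flavonols, glucosinolate precursors and foreign compounds, and the added sugar changes how soluble, active or mobile the acceptor is. Flavonols and anthocyanins are known to accumulate in Arabidopsis in the cold, and both are stored as glycosides.

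The series set 6 lines of whole seedlings, at growth stage 1.02, against low temperature, with 1 array per line at ambient temperature and 1 in the cold, 12 arrays in all. Per the labels, all plants spent 4 days in a fridge after sowing and grew at 20 °C under 16 h of light, while no label used here says how cold the treatment was or how long it lasted. The lines were Col-0, the wild type; Col-aeq, whose name carries aeq, as do the titles of the fad3/7/8 arrays; fab1 and fad2, both from EMS mutagenesis; fad3/7/8, which combines fad3, fad7 and fad8 mutations by crossing; and 35S-FAD3, named so in the titles, although its genotype is labelled 35S::apoaequorin. Apoaequorin is the protein part of a calcium reporter, and the 35S promoter drives expression in most plant tissues. FAB1, FAD2, FAD3, FAD7 and FAD8 are known for the chain length and unsaturation of membrane fatty acids. A search by these symbols found no probe set, and the genotypes were not checked here. Col-0 and Col-aeq are called the control lines below.

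Values are MAS5 signals, a linear brightness that the authors scaled to a common level on every array. Medians over all probe sets lay between 34.5 and 39.3. The ambient Col-aeq array stood apart in RNA quality, with an actin 3′ to 5′ ratio of 7.00 against 1.96 to 2.21 on the other 11 arrays and a GAPDH ratio of 1.87 against 0.944 to 1.19. A test was made where the 12 signals of a probe set averaged at least 22.9, the 40th percentile of such means. Of the 46 UGTs, 28 reached it, with mean signals from 24.5 to 702.5, and 18 did not. Differences are given on the scale of log2(signal + 1.6), which understates changes of dim probe sets, with the standard error of the fit. With 1 array per line and temperature, the error in the cold comparison is the spread of the cold change between lines, and no line has a replicate of its own. Changes of RNA in whole seedlings cannot be told apart from changes in the share of cells that hold it.

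The first comparison asked which UGT transcripts differed between cold and ambient seedlings over the 6 lines. Of the 28 tested, 16 passed an adjusted p of 0.05, or 57.1%, against 33.5% of all 13649 probe sets tested. Rises accounted for 12 of them, 42.9% of the UGTs against 15.1% of all probe sets, and falls for 4, 14.3% against 18.4%. The median change of the 28 was 0.17, against −0.03 over all probe sets tested. These shares cover only genes bright enough to be tested, and UGT84A1 and UGT76D1 were bright enough only through their cold arrays. With no filter on brightness, 14 of the 46 passed, 10 higher and 4 lower, against 18.9% of all probe sets. The plot of the cold change in each line shows all 28.

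**Figure D1:**
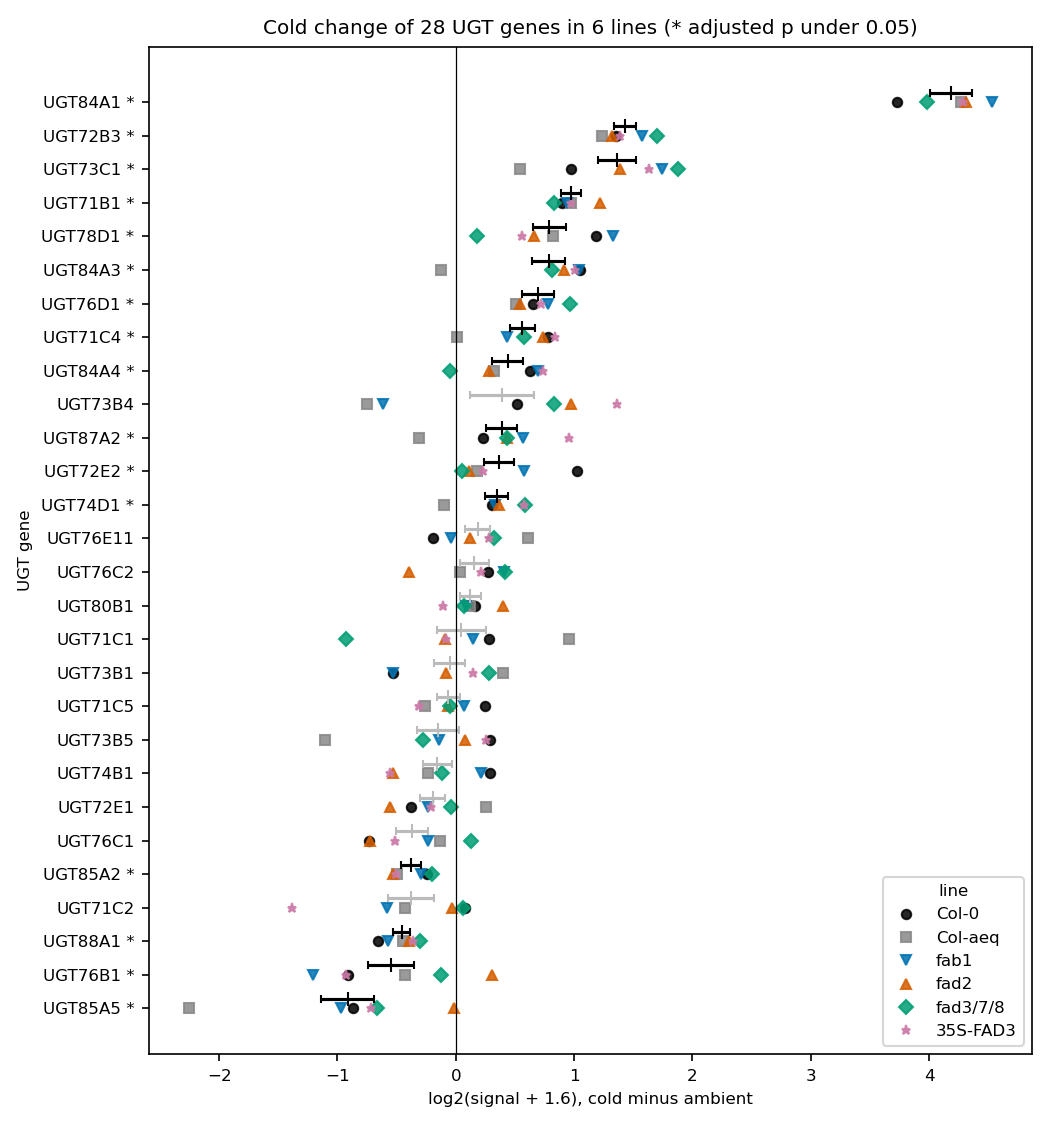
Cold minus ambient difference of log2(signal + 1.6) for the 28 tested UGT genes; coloured symbols are the 6 lines (1 ambient and 1 cold array each), and the bar above each row is the fitted mean with its standard error, black where the adjusted p was under 0.05 and grey otherwise. UGT84A1 lies between 3.73 and 4.53 in all 6 lines, apart from every other gene, and Col-aeq gives the lowest value in 10 of the 28 rows.

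The largest rise was in the phenylpropanoid group. Its 6 members attach glucose to hydroxycinnamic acids or to lignin precursors. Of these 5 were tested, with a median change of 0.44, and 4 rose in the cold, where 15.1% of all probe sets rose. UGT84A1, among the 4, was bright enough to be tested only through its cold arrays. The groups by role were drawn up after the values were seen, so this count describes the group and tests nothing. UGT84A1, UGT84A3 and UGT84A4, whose loci AT4G15480, AT4G15490 and AT4G15500 lie side by side on chromosome 4, form glucose esters of hydroxycinnamic acids such as sinapic acid. All 3 rose.

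UGT84A1 (probe set 245560_at) read 7.8 in ambient Col-0 and between 1.5 and 1.9 on the other 5 ambient arrays. In the cold it read 122.9 in Col-0, 58.2 in Col-aeq, 79.3 in fab1, 60 in fad2, 47.5 in fad3/7/8 and 62.9 in 35S-FAD3. The groups were far apart, the lowest cold signal being 6.09 times the highest ambient one. The fitted rise was 4.19 (SE 0.179, n = 6 lines, adjusted p 4.72e-08). Its size is uncertain, since all 6 ambient signals were below the brightness filter; it was 2.76 with a larger constant of 9.0 in place of 1.6.

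UGT84A3 (245352_at) was brighter throughout. Ambient signals ran from 139.2 in fad2 through a median of 188.75 to 378.6 in Col-aeq, and cold signals from 263.4 in fad2 through 366.0 to 399.4 in fab1. The groups overlapped only through ambient Col-aeq and the cold arrays below it. The rise was 0.78 (SE 0.143, adjusted p 0.00163), with 0.81 to 1.05 in 5 lines and −0.12 in Col-aeq. UGT84A4 (245561_at) rose less, by 0.44 (SE 0.128, adjusted p 0.0222), from a median of 33.6 to one of 46.65, and was higher in the cold in 5 of 6 lines. This call was lost in 4 of 14 other ways of processing, with no filter and without Col-0, fab1 or 35S-FAD3, at adjusted p up to 0.075; UGT84A1 and UGT84A3 kept theirs wherever they were tested.

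UGT72E1, UGT72E2 and UGT72E3 glucosylate monolignols and their aldehydes, the building units of lignin. UGT72E2 (247059_at, AT5G66690) rose by 0.36 (SE 0.127, adjusted p 0.0476); Col-0 went from 71.6 to 147.3, a change of 1.02, whereas fad3/7/8 went from 71.6 to 74.5. The call was lost in 7 of 15 other ways of processing, among them those without Col-0, fab1, fad2 or 35S-FAD3, with adjusted p from 0.0229 to 0.226 over all 15. UGT72E1 (252183_at, AT3G50740) did not pass in the cold comparison, at −0.20 (SE 0.106, adjusted p 0.182). UGT72E3 was too dim for the main test, with ambient signals of 2.9 to 15.7 and cold signals of 8.3 to 39.1. It was higher in the cold in 6 of 6 lines, and with no brightness filter its change was 1.55 (SE 0.216, adjusted p 0.000825).

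The flavonoid group, as drawn up, holds 2 members, of which UGT78D1 (261804_at, AT1G30530) was bright enough to test. UGT78D1 adds rhamnose to the 3-hydroxyl of flavonols. Its ambient signals were 147.9 in Col-0, 76.3 in Col-aeq, 98.7 in fab1, 152.8 in fad2, 108.9 in fad3/7/8 and 125.0 in 35S-FAD3, and its cold signals in the same order were 338.2, 136.2, 250.9, 242.3, 123.5 and 185.2. Each line was higher in the cold, though the groups overlapped, with cold Col-aeq and fad3/7/8 below ambient Col-0 and fad2. The rise was 0.79 (SE 0.138, adjusted p 0.00123), from 0.18 in fad3/7/8 to 1.33 in fab1. UGT78D3, a flavonol arabinosyltransferase, stayed under the filter at 3.7 to 15.5 in ambient and 14.7 to 30.8 in cold arrays.

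The UGTs placed in the hormone group gave mixed results. As drawn up, the group holds 13 members for abscisic acid, cytokinins, auxins and salicylates. Of these 6 were tested, with a median of 0.05. In the cold 2 rose and 1 fell, where 15.1% of all probe sets rose and 18.4% fell. UGT76D1 (245056_at, AT2G26480) glucosylates dihydroxybenzoic acids, which are products of salicylic acid. It ran from 14.6 to 22.2 around a median of 18.6 on ambient arrays and from 26.2 to 32.3 around 31.6 on cold arrays, with no overlap. The rise was 0.69 (SE 0.131, adjusted p 0.00205), between 0.51 and 0.97 in each line, though its ambient signals were all under the filter level.

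UGT74D1 (263473_at, AT2G31750), which acts on auxins, rose by 0.34 (SE 0.0947, adjusted p 0.0164), from a median of 365.2 to 473.5, and in 5 of 6 lines. The call was lost without the line term and without fad3/7/8 or 35S-FAD3, at adjusted p up to 0.066. UGT76B1 (256252_at, AT3G11340), which glucosylates salicylic acid and isoleucic acid, had ambient signals of 27.6 to 54.6 with a median of 34.65 and cold signals of 12.9 to 48.7 with a median of 26.35. It fell by 0.55 (SE 0.192, adjusted p 0.0483), but fad2 rose from 39.0 to 48.7 and the groups overlapped widely. The call was lost in 7 of 14 other ways of processing, with adjusted p from 0.0152 to 0.148 over all of them.

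The cytokinin N-glucosyltransferases UGT76C1 and UGT76C2, neighbours on chromosome 5, did not pass. UGT76C1 changed by −0.37 (SE 0.134, adjusted p 0.0547) and UGT76C2 by 0.16 (SE 0.122, adjusted p 0.35). Neither did UGT71C5, which glucosylates abscisic acid, at −0.06 (SE 0.098, adjusted p 0.656). UGT71B6, which also acts on abscisic acid, UGT84B1, which acts on auxin, and UGT74F1, which acts on salicylic acid, never exceeded signals of 3.1, 12.1 and 9.8.

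The glucosinolate and sterol groups, as drawn up, each hold a single member. UGT74B1, which glucosylates thiohydroximates in glucosinolate synthesis, changed by −0.16 (SE 0.121, adjusted p 0.355). UGT80B1, a sterol glucosyltransferase, changed by 0.12 (SE 0.0889, adjusted p 0.314). Neither passed.

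**Figure D2:**
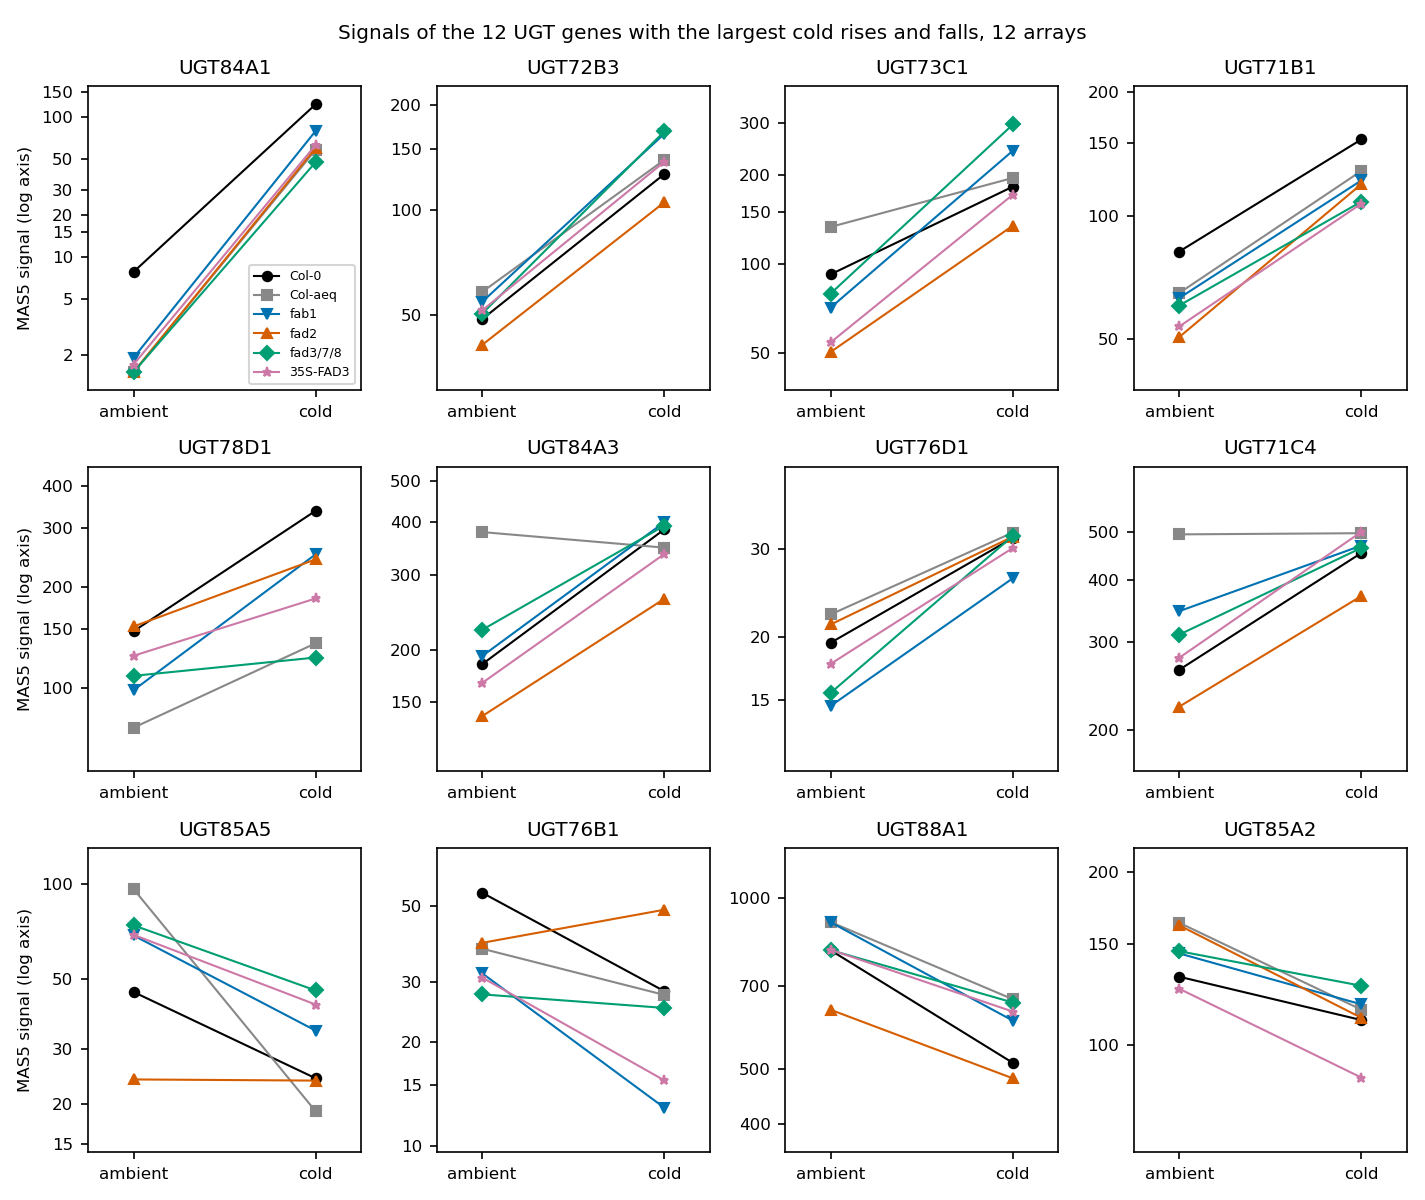
MAS5 signal (log axis) on the ambient and cold array of each of the 6 lines, joined by a line, for the 8 UGT genes with the largest called rises and the 4 that fell. Ambient and cold arrays do not overlap for UGT84A1, UGT72B3, UGT73C1, UGT71B1 and UGT76D1.

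Some of the clearest rises belonged to members that were not placed in any of these groups. UGT72B3 (261048_at, AT1G01420) read 41.1 to 58.3 with a median of 51.05 on ambient arrays and 105.3 to 168.1 with a median of 138.45 on cold arrays. Every cold array was above every ambient one. The rise was 1.43 (SE 0.0905, adjusted p 8.49e-07), or 2.69-fold, and lay between 1.23 and 1.70 in each line.

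UGT73C1 (265197_at, AT2G36750), an enzyme known to conjugate trinitrotoluene, read 92.1 in Col-0, 133.3 in Col-aeq, 71.1 in fab1, 50.3 in fad2, 79.3 in fad3/7/8 and 54.2 in 35S-FAD3 at ambient temperature. In the cold the same lines gave 182.5, 195.3, 241.5, 134.6, 296.2 and 171.4. The groups only just failed to overlap, since cold fad2 at 134.6 was next to ambient Col-aeq at 133.3. The rise was 1.36 (SE 0.159, adjusted p 7.80e-05), or 2.57-fold, from 0.55 in Col-aeq to 1.88 in fad3/7/8.

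UGT71B1 (257949_at, AT3G21750) ran from 50.5 to 81.7 with a median of 61.6 on ambient arrays and from 107.0 to 153.5 with a median of 120.65 on cold ones. The groups did not overlap, and the rise of 0.97 (SE 0.0845, adjusted p 8.65e-06), or 1.96-fold, varied little, between 0.83 and 1.22 across lines. UGT71C4 (256033_at, AT1G07250) ran from 222.7 to 494.7 around 295.1 on ambient and from 371.9 to 500.7 around 467.25 on cold arrays. Its highest ambient signal was that of Col-aeq, where the change was 0.01; the other 5 lines lay between 0.44 and 0.84, and the mean rise was 0.56 (SE 0.108, adjusted p 0.00222). UGT87A2 (267300_at, AT2G30140), which affects flowering time, rose by 0.39 (SE 0.134, adjusted p 0.0454), in 5 of 6 lines, with Col-aeq at −0.31. The call was lost in 9 of 15 other ways of processing, without Col-0, fab1, fad2, fad3/7/8 or 35S-FAD3 in turn among them, with adjusted p from 0.00132 to 0.145 over all 15.

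In total 5 of the 28 had every cold array above every ambient one, 17.9% against 5.72% of all probe sets, and 0 had every cold array below, against 6.62%. UGT84A1 and UGT76D1, which passed the brightness filter only through their cold arrays, are among the 5. With no filter the order held for 5 of 46, 10.9% against 3.62% of all probe sets.

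Falls beside UGT76B1 were those of UGT85A5, UGT88A1 and UGT85A2. UGT88A1 (257205_at, AT3G16520) was bright on all arrays, at 808.9 in Col-0, 907.0 in Col-aeq, 906.1 in fab1, 635.7 in fad2, 809.6 in fad3/7/8 and 810.7 in 35S-FAD3 at ambient temperature and 512.7, 663.5, 608.4, 481.6, 654.7 and 631.1 in the cold. Only cold arrays of Col-aeq and fad3/7/8 exceeded ambient fad2. The fall was 0.46 on the log2 scale, with a difference of −0.46 (SE 0.0703, adjusted p 0.000537), in 6 of 6 lines.

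UGT85A2 and UGT85A5 lie together on chromosome 1 (AT1G22360 and AT1G22370). UGT85A2 (255942_at) went from 125.4 to 163.4 around 145.15 on ambient arrays to 87.8 to 126.9 around 113.45 on cold arrays, a change of −0.38 (SE 0.084, adjusted p 0.0054), lower in 6 of 6 lines. UGT85A5 (255943_at), which raised salt tolerance when expressed in tobacco, ran from 24.0 in fad2 through a median of 68.95 to 96.6 in Col-aeq at ambient temperature and from 19.0 in Col-aeq through 29.25 to 46.0 in fad3/7/8 in the cold. Its change of −0.91 (SE 0.224, adjusted p 0.00923) was uneven, from −2.25 in Col-aeq to −0.01 in fad2.

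By family number, all 3 tested members of family 84 rose and both tested members of family 85 fell. Rises were found for 2 of 5 in family 71, 2 of 3 in family 72, 1 of 4 in family 73 and 1 of 2 in family 74. Family 76 had 1 rise and 1 fall among 5. The single tested members of families 78 and 87 rose, that of family 88 fell and that of family 80 did not pass. Of all probe sets 15.1% rose and 18.4% fell. These counts include UGT84A1, bright enough to be tested only through its cold arrays. They also include UGT84A4, UGT72E2, UGT74D1, UGT76B1 and UGT87A2, whose calls were lost in some other ways of processing. Of the 18 genes below the filter, 11 never reached a signal of 22.9 on any array. Beside UGT72E3, UGT85A4 passed when no filter was used, with −1.50 (SE 0.25, adjusted p 0.00238): its ambient signals were 18.1 to 35.8 and its cold signals 2.3 to 22.0.

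Col-aeq gave the lowest cold change of the 6 lines in 10 of the 28 UGTs, 35.7%, against 23.8% of all probe sets, and its ambient array is the one with the high 3′ to 5′ ratios. Without this line 18 UGTs passed in place of 16, and 38.8% of all probe sets in place of 33.5%. Green shoot markers also moved with cold, 2 of 3 being lower, where 18.4% of all probe sets were, with summed signals of 9350 to 11095 on ambient and 7546 to 9585 on cold arrays. Of 8 root markers 2 were lower, a share near that of all probe sets, and 0 higher, their summed signals running from 2821 to 3403 on ambient and from 2612 to 3108 on cold arrays. The part of RNA quality and of these markers in the UGT changes was not tested.

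Further comparisons set each altered line against the mean of the control lines over both temperatures; they share the 4 control arrays. The fad2 line, which lacks much of the polyunsaturated fatty acid made outside the plastid, gave 1 call among 28, 3.57%, against 9.47% of all probe sets. It was UGT72E1, the enzyme that glucosylates the aldehydes among the lignin precursors. Its ambient signals were 143.6 in Col-0, 130.2 in Col-aeq, 154.4 in fab1, 302.7 in fad2, 170.4 in fad3/7/8 and 160.2 in 35S-FAD3, and its cold signals 109.8, 155.5, 131.0, 205.2, 165.2 and 138.7.

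Both fad2 arrays were above the other 10, which held for no other tested UGT and for 8.51% of all probe sets. The difference from the control lines was 0.89 (SE 0.159, adjusted p 0.00952), or 1.85-fold. Without the ambient fad2 array, which leaves only the cold one for this line, the difference was 0.67. The call was then lost, as were most calls over all probe sets. At an unadjusted p of 0.05, 11 UGTs differed, 39.3% against 25.4% of all probe sets. Without the cold Col-aeq array 10 passed, against 25% of all probe sets. Without ambient Col-aeq or cold Col-0 2 passed, against 11.2% and 4.54% of all probe sets. With each array centred on its median 6 passed, UGT72E1 higher and 5 lower, against 9.96% of all probe sets.

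Setting fad2 against all 5 other lines, which uses the same control arrays again, called 3 of 28, 10.7% against 12.8% of all probe sets. UGT72E1 was higher by 0.78 (SE 0.142, adjusted p 0.00676). UGT72E2, its relative for the monolignols, was higher by 0.71 (SE 0.171, adjusted p 0.0225). Its fad2 signals were 140.3 and 152.1; ambient Col-0, Col-aeq, fab1, fad3/7/8 and 35S-FAD3 read 71.6, 97.7, 58.2, 71.6 and 90.1, and their cold arrays 147.3, 111.1, 87.8, 74.5 and 105.8. Cold Col-0 lay between the fad2 arrays, and the other 9 lay below both. UGT88A1 was lower, by −0.38 (SE 0.0943, adjusted p 0.0255), and its fad2 array was the lowest at each temperature; this call was also lost with no intensity trend. Without the ambient fad2 array the calls of all 3 UGTs were lost, and without the cold one that of UGT72E1 stayed. Each of these fits keeps only 1 fad2 array, and most calls over all probe sets were lost in them too. Without ambient Col-aeq 10 UGTs passed and without cold Col-aeq 11, where 21.0% and 25.1% of all probe sets did. Other scalings called more falls, with 2 higher and 5 lower after quantile normalization and 2 higher and 6 lower with centred arrays. They called 14.5% and 14.3% of all probe sets.

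Root markers moved with fad2 as well. Of 8, 4 were higher than in the control lines and 0 lower, where 9.47% of all probe sets were called either way, with a median difference of 0.86, and 7 of them without PYK10 summed to 839 to 1043 in fad2 against 323 to 604 on the other 10 arrays. With PYK10 the sums were 3108 to 3330 against 2612 to 3403. Green shoot markers showed 0 calls of 3. The part of root RNA in the fad2 differences of UGT72E1, UGT72E2 and UGT88A1 was not tested.

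**Figure D3:**
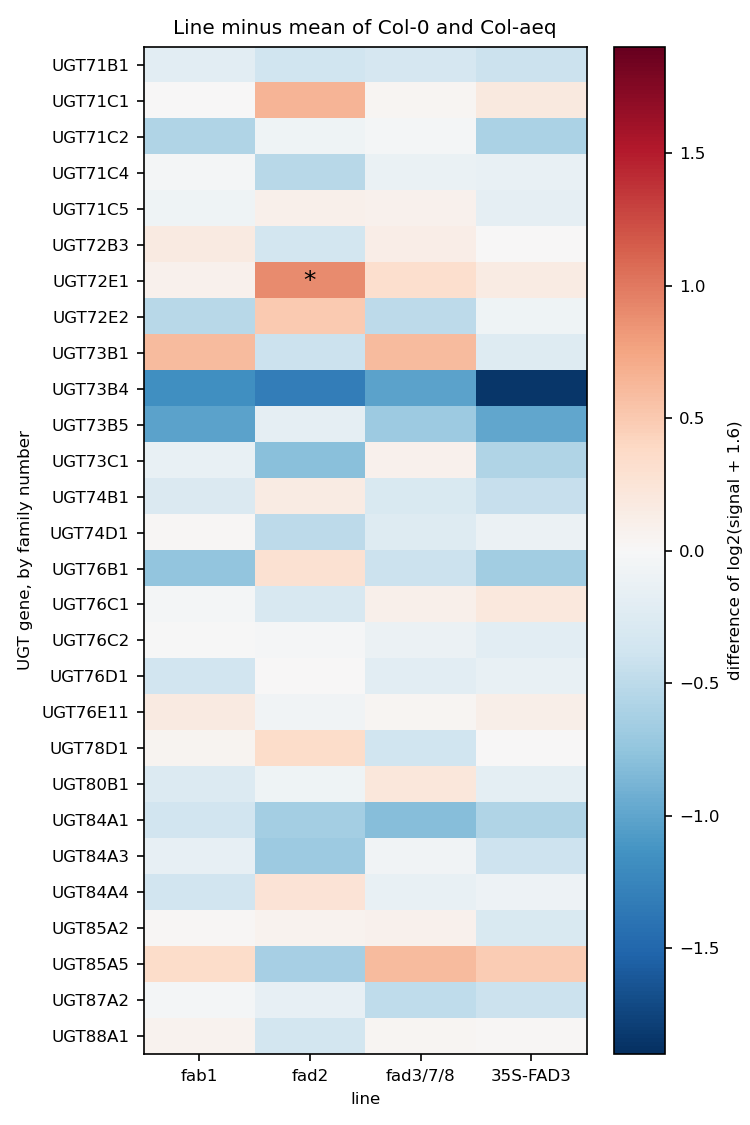
Difference of log2(signal + 1.6) between each of the 4 altered lines and the mean of the control lines, temperatures pooled, for the 28 tested UGT genes in rows (red higher, blue lower). The asterisk marks an adjusted p under 0.05, reached by UGT72E1 in fad2 alone; the darkest blue cell is UGT73B4 in 35S-FAD3, at −1.85.

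The other lines gave no call among the UGTs, and few anywhere. For fab1, in which elongation of palmitate is impaired, 0 of 28 passed against 0.0147% of all probe sets, while 5 had an unadjusted p under 0.05, 17.9% against 6.14%. For fad3/7/8, which lacks trienoic fatty acids, 0 passed against 0.0366%, with 7 at an unadjusted p under 0.05, 25% against 12.5%. For 35S-FAD3, 0 passed against 0.19%, with 7 at an unadjusted p under 0.05, 25% against 12.4%. Without the cold Col-aeq array 4, 6 and 5 UGTs passed in fab1, fad3/7/8 and 35S-FAD3, where 5.49%, 13.3% and 12.3% of all probe sets did.

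The lowest p-values in these lines fell mostly in subfamily UGT73B. UGT73B4 (265501_at, AT2G15490) conjugates trinitrotoluene, and its neighbour UGT73B5 (265499_at, AT2G15480) takes part in resistance to Pseudomonas. UGT73B4 read 41.5 and 60.2 in Col-0, ambient before cold, 49.6 and 28.9 in Col-aeq, 23.3 and 14.7 in fab1, 11.3 and 23.8 in fad2, 15.1 and 28 in fad3/7/8 and 6.2 and 18.5 in 35S-FAD3. All 4 control arrays were above all 8 of the altered lines, by 28.9 to 28 at the closest; 1 of 28 UGTs and 0.234% of all probe sets showed this order, which was noticed after the values were seen. The differences of −1.85 in 35S-FAD3 (SE 0.408, adjusted p 0.128) and −1.16 in fab1 (SE 0.408, adjusted p 0.748) did not pass.

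UGT73B5 read, ambient before cold, 41.8 and 51.3 in Col-0, 65.0 and 29.3 in Col-aeq, 22.7 and 20.4 in fab1, 38.5 and 40.8 in fad2, 30.3 and 24.7 in fad3/7/8 and 19.8 and 24.0 in 35S-FAD3. The differences from the control lines were −1.01 in fab1 (SE 0.267, adjusted p 0.614) and −0.99 in 35S-FAD3 (SE 0.267, adjusted p 0.216). Neither passed. Without the cold Col-aeq array both passed, at −1.30 and −1.28, in fits where 5.49% and 12.3% of all probe sets did. Those fits keep the ambient Col-aeq array, with its signal of 65.0 and its high 3′ to 5′ ratios. Without the ambient Col-aeq array neither passed. Without both Col-aeq arrays the difference in 35S-FAD3 passed, as did 2.31% of all probe sets. That in fab1 was −1.05 (adjusted p 0.122) and did not.

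UGT73B1 (253281_at, AT4G34138) went the other way, with 0.60 in fab1 (SE 0.199, adjusted p 0.712) and 0.61 in fad3/7/8 (SE 0.199, adjusted p 0.289), and neither passed. Ambient before cold, it read 200.5 and 138.5 in Col-0, 120.5 and 159.6 in Col-aeq, 278.1 and 191.9 in fab1, 117.7 and 111.3 in fad2, 211.1 and 256.3 in fad3/7/8 and 121.2 and 134.1 in 35S-FAD3. The fad2 arrays were the lowest of the 12, an order held by 1 of 28 UGTs and 4.66% of all probe sets. Without the cold Col-aeq array the differences in fab1 and fad3/7/8 passed, where 5.49% and 13.3% of all probe sets did. Other members with low p-values that did not pass were UGT84A1 at −0.81 (SE 0.269, adjusted p 0.291) and UGT72E2 at −0.49 (SE 0.191, adjusted p 0.335) in fad3/7/8, and UGT71B1 at −0.41 (SE 0.127, adjusted p 0.271) in 35S-FAD3. Without both Col-aeq arrays that of UGT84A1 passed, as did 5.08% of all probe sets.

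**Figure D4:**
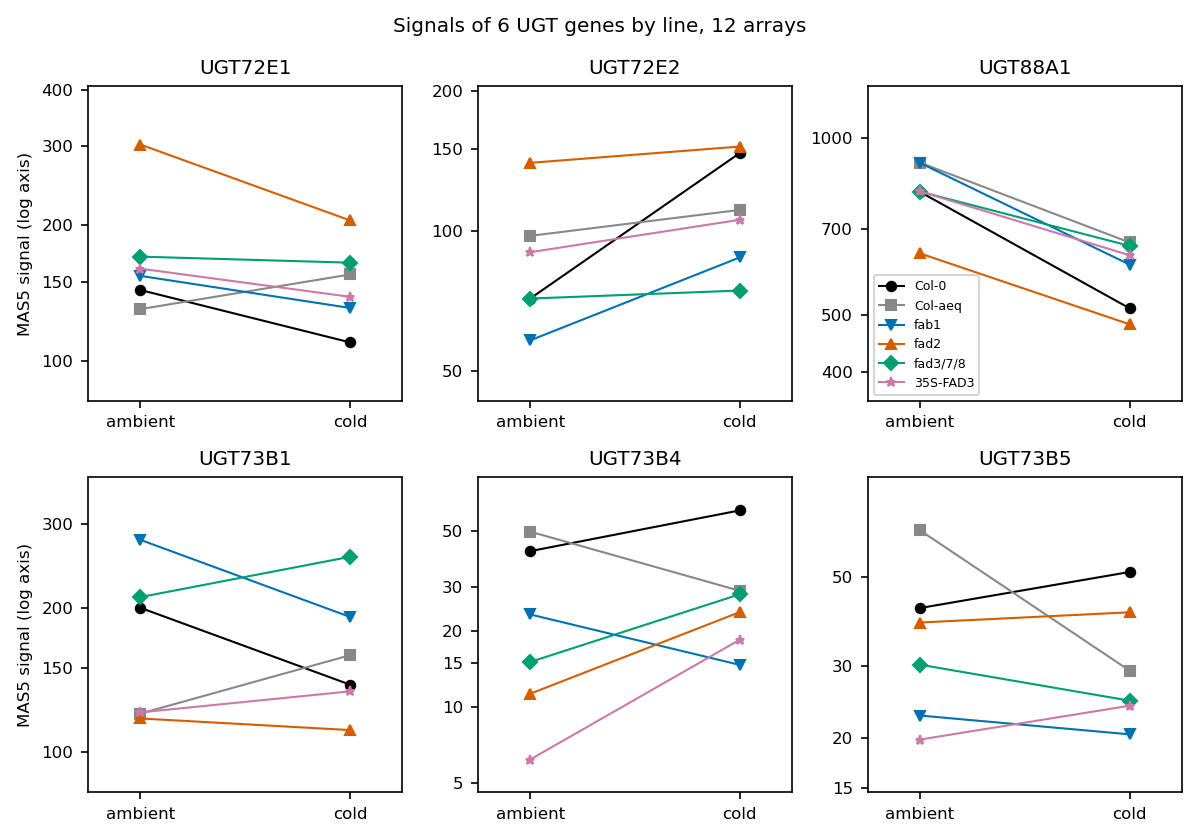
MAS5 signal (log axis) on the ambient and cold array of each line for 6 UGT genes named in the comparisons of lines. The fad2 arrays are the highest for UGT72E1 (302.7 and 205.2) and the lowest for UGT73B1 (117.7 and 111.3), and the 4 control arrays of UGT73B4 (28.9 to 60.2) are above the other 8.

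The last comparison asked whether the cold change itself differed between the 3 mutant lines and the 2 control lines. No UGT passed, nor did any of the 13649 probe sets (0.0%); at an unadjusted p under 0.05 there were 4 UGTs, 14.3% against 7.51%. UGT73C1 changed by 1.67 in the mutants and by 0.76 in the control lines, a difference of 0.91 (SE 0.234, adjusted p 0.663). UGT85A5 changed by −0.55 and −1.56, a difference of 1.01 (SE 0.429, adjusted p 0.663), and UGT87A2 by 0.48 and −0.04, a difference of 0.52 (SE 0.208, adjusted p 0.663). UGT87A2 read 353.9 in Col-0, 353.7 in Col-aeq, 279.9 in fab1, 268.6 in fad2, 213.8 in fad3/7/8 and 188.7 in 35S-FAD3 at ambient temperature and 415.8, 285.3, 416.8, 362.4, 289.9 and 368.8 in the cold. Without Col-0, which leaves Col-aeq as the only control line, 3 UGTs passed, as did 4.09% of all probe sets.

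Enzymes around the UGTs were looked at through lists of genes. Of 23 genes for the supply of UDP-sugars, 1 had a named probe set: USP, a UDP-sugar pyrophosphorylase, whose cold change of −0.23 (SE 0.0957, adjusted p 0.0862) did not pass. Beta-glucosidases of the BGLU family, many of which remove glucose from conjugates, had 9 of 20 probe sets tested. In the cold 0 rose and 2 fell, BGLU44 by −0.59 (SE 0.0902, adjusted p 0.000506) and BGLU16 by −0.54 (SE 0.105, adjusted p 0.00251), and the median was −0.09; 2 of 9 is near the 18.4% of all probe sets that fell. In fad2, where 9.47% of all probe sets were called, BGLU15 at 1.04 (adjusted p 0.00519) and BGLU42 at 0.89 (adjusted p 0.00582) were higher than in the control lines and BGLU40 at −0.86 (adjusted p 0.00815) was lower.

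Glutathione S-transferases, the other large family that conjugates foreign compounds, had 9 of 14 tested, with a median cold change of −0.18; 2 rose and 3 fell, against 15.1% and 18.4% of all probe sets. GSTU28 at 0.89 (adjusted p 0.00188) and GSTU25 at 0.48 (adjusted p 0.0145) rose, and GSTU18 at −0.60 (adjusted p 0.00057), GSTU27 at −0.43 (adjusted p 0.0022) and GSTU16 at −0.36 (adjusted p 0.0441) fell. In fad2, GSTU25 was higher, at 0.85 (adjusted p 0.024), and GSTU16 lower, at −0.69 (adjusted p 0.0439).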

How the data were processed

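RNA came from a Qiagen extraction and was biotin-labelled by in vitro transcription, per the labels' protocols. Each of the 12 arrays has MAS5 signals, deposited as linear intensity. The submitters' processing notes name MAS5 and GCOS without a version. Trimmed means (2% from each end) were 100.0 on every array, so the authors' scaling was kept. Gene names came from the platform annotation; all 46 members matched RefSeq by locus.

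Signals were taken as log2(signal + 1.6), the constant being the 10th percentile, and 13649 probe sets with a mean signal of at least 22.9 were fitted with limma 3.58.1 in R 4.3.3, with line and temperature as terms and an intensity trend. The change in cold between classes was fitted on within-line differences. Benjamini-Hochberg adjustment ran over all probe sets tested, at 0.05. The fits were tested on simulated data. No separate cultures are stated, so p-values measure the spread between arrays, and the number of arrays limits precision.

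Signals on all arrays are given, in the text or the plots, for the 8 largest called cold rises and the 4 called falls. The same holds for the members with the lowest p in each comparison of lines. Members, lists, role groups and markers were chosen with earlier results of these data known, and the role groups after the values were seen. Alternatives were other scalings, constants, filters, variance models, array weights and leaving out arrays or lines.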

Additional observations from a re-analysis of the deposited data

Results flagged for a closer look

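For each tested UGT the highest and lowest array of the 6 ambient and 6 cold arrays, and the cold changes of the 6 lines, were checked for a gap to the nearest other value that took up most of the range. Of 84 such checks 8 met the limit. About 1 in 20 would do so for independent values with a normal spread. The checks share the same 12 arrays, so that rate is no measure of chance here.

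In fad2, the ambient signal of UGT72E1, 302.7, was far above the other ambient arrays, the ambient signal of UGT88A1, 635.7, was far below them, and the cold signal of UGT71C4, 371.9, was the lowest of the cold arrays. In 35S-FAD3 the cold signals of UGT71C5, 54.9, and of UGT85A2, 87.8, were the lowest of the cold arrays. The cold signal of UGT76D1 in fab1, 26.2, stood below the other 5. The ambient signal of UGT84A1 in Col-0, 7.8, stood above the other ambient arrays, although still dim. The cold change of UGT84A3 in Col-aeq was −0.12, against rises in the other 5 lines.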

How the results depend on the processing

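The cold comparison called 16 of 28 UGTs. It called 14 of 46 with no filter, 11 of 17 with the 60th percentile filter and 15 of 27 with a filter on mean log2 signal, which was chosen after seeing the data and did not test UGT84A1. In the other alternatives, those that left out a line included, it called 11 to 18 of 28. Of all probe sets, 18.9% were called with no filter, 38% with the 60th percentile filter and 33.3% with the filter on mean log2 signal. In the other alternatives 25.1% to 39.9% of all probe sets were called. For fad2 against the control lines, 1 call became 6 (1 higher, 5 lower) with arrays centred on their medians, which moved the median of all probe sets from 0.02 to −0.08, 2 with the larger constant, 2 with no intensity trend, 6 without both Col-aeq arrays, 5 with array weights and 0 to 10 with 1 array left out. For fad2 against the other 5 lines, 3 calls (2 higher, 1 lower) became 7 (2 higher, 5 lower) with quantile normalization, 8 (2 and 6) centred on medians, 6 (2 and 4) of 17 with a filter at the 60th percentile, 10 without both Col-aeq arrays, 10 with array weights and 0 to 11 with 1 array left out. From 0 calls, fad3/7/8 gave 3 and 35S-FAD3 gave 2 without both Col-aeq arrays; with 1 array left out, fab1 gave 0 to 4, fad3/7/8 0 to 6 and 35S-FAD3 0 to 5. The highest of these came without the cold Col-aeq array, and the cause was not tested. The share of all probe sets called was also highest there. For fad2 against the control lines it was 9.47% in the main fit and 9.96% centred on medians. For fad2 against the other 5 lines it was 12.8% in the main fit, 14.5% with quantile normalization and 14.3% centred on medians. With the 60th percentile filter it was 16.3%. Without both Col-aeq arrays it was 11.6% and 21.8% in turn, 5.08% in fad3/7/8 and 2.31% in 35S-FAD3. The cold change in mutants against control lines gave 0 to 3 with 1 line left out. Where 1 array of a line stayed, it was assumed to vary like the others. Of the named UGTs, 392 alternative values kept direction and side of the threshold, 11 gained a call, 14 lost one and 0 reversed. In the cold comparison and that of cold changes, these counts hold the fit without Col-aeq more than once, under separate names. The cold fit pairs the ambient and cold array of each line; without the line term it called 12 UGTs, and 25.1% of all probe sets. Each UGT had 1 probe set, so a choice of another could not be run.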
